A study of Homo sapiens with 13 samples.

Results

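CUT&RUN peaks of LEF1 and TCF7L2 were examined at 6 genes of the G1 cell-cycle machinery in Nalm6 cells, a long-established line from a human B-cell acute lymphoblastic leukaemia. The genes were the D-type cyclins CCND1, CCND2 and CCND3, their kinase partner CDK6, and the CIP/KIP inhibitors CDKN1A and CDKN1B, which encode p21 and p27. Every peak that overlapped one of the gene spans, or the 25 kb on either side of it, was taken, on hg19. This gave 2282 of the 3429979 peaks in 12 lists, 1308 of them from LEF1 libraries and 974 from TCF7L2 libraries. The windows together covered 707 kb. By gene, 95 of these peaks lay at CCND1, 134 at CCND2, 468 at CCND3, 1230 at CDK6, 183 at CDKN1A and 172 at CDKN1B.

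In CUT&RUN an antibody tethers a nuclease to chromatin, and the fragments that it cuts free are sequenced. There were 4 groups of 3 libraries: LEF1 control, LEF1 prednisolone, TCF7L2 control and TCF7L2 prednisolone. The treated cells had spent 24 h in 5 µM of the synthetic glucocorticoid prednisolone. The controls are given as untreated in one label and as vehicle in another. All cells were grown in charcoal-stripped serum, a medium depleted of steroids, and all came from the 1 cell line. The replicates are described as independent experiments. An IgG sample, the 13th of the series, was not analysed here, so no background measured with a non-specific antibody stands beside the values below.

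LEF1 and TCF7L2 are HMG-box transcription factors of the TCF/LEF family. They bind DNA directly and, with β-catenin as partner, mediate the transcriptional output of canonical Wnt signalling; in its absence they can act with co-repressors. D-type cyclins activate CDK4 and CDK6, which phosphorylate the retinoblastoma protein and let cells pass from G1 into S phase. p21 and p27 bind cyclin-CDK complexes and restrain CDK2 in particular. CCND1 is a textbook Wnt target in epithelial cells, cyclin D3 serves the expansion of B-cell precursors, and glucocorticoids are known to arrest lymphoid leukaemia cells in G1.

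Strength was read in 2 ways. A top peak is one of the 20000 peaks with the highest -log10 p-value in its list, and the rank of a peak is its place in that order, with 1 the strongest. A rank is a place within its own list. The lists differed in length, from 128863 to 395786 peaks, and in strength, so that a difference in rank is not a measure of occupancy. The sites described below were chosen by their ranks, some after the values were seen, so differences at a single site are given as descriptions, without a p-value. Tests of single genes used the number of top peaks and the rank of the strongest peak in the window. On the -log10 q scale the weakest top peak stood at 5.49 to 6.62 for LEF1 but only at 0.390 to 0.996 for TCF7L2. Those reaching 5 on that scale numbered 21764 to 27309 in the LEF1 lists, 2401 to 3524 in the TCF7L2 control lists and 1271 to 2249 in the TCF7L2 prednisolone lists. The prednisolone lists of TCF7L2 were thus the weakest, and the part of this in the TCF7L2 results below was not tested. Libraries also fell into sets by their shortest peak: for either antibody, control 1 and prednisolone 2 and 3 were on one side and the other 3 numbers on the other, at 164 to 165 against 187 to 197 bp for LEF1 and at 193 to 201 against 158 to 167 bp for TCF7L2.

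Promoter sequence was available from RefSeq (GRCh38.p14) for 4 of the 6 genes, CCND3, CDK6, CDKN1A and CDKN1B. The 250 bases before the most upstream start are printed because sites lay differently around the 5′ ends of the gene spans. The strongest CCND3 site lay just upstream of the span. A CDK6 site and a CDKN1B site reached across the 5′ end of the span, and no CDKN1A site came within 1 kb of it.
CCND3, chr6:42048689-42048938, minus strand: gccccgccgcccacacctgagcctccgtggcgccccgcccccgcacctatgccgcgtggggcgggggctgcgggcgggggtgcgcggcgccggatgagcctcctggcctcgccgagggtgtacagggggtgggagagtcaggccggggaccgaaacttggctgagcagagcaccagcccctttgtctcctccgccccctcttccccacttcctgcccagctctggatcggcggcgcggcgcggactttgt
CDK6, chr7:92836574-92836823, minus strand: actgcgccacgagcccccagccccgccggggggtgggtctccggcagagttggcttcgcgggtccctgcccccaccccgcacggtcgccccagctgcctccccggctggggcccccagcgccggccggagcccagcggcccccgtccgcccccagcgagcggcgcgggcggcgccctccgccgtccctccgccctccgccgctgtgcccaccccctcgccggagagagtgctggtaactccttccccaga
CDKN1A, chr6:36678464-36678713, plus strand: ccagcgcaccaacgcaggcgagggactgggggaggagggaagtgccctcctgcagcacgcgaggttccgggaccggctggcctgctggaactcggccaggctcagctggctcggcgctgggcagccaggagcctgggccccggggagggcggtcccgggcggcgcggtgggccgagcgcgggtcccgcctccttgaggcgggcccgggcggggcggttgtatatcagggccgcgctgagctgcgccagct
CDKN1B, chr12:12717118-12717367, plus strand: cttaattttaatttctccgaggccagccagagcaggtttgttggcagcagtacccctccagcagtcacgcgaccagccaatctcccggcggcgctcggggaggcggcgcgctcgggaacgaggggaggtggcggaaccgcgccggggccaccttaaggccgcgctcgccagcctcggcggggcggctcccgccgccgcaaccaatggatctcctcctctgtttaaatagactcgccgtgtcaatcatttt
All letters are in lower case because none of the motifs searched, on both strands, was found. The TCF/LEF words were CTTTGAA, held by 3.80% of the 35116 promoters of this length in the table, and CTTTGAT, held by 2.26%. The single glucocorticoid-receptor word AGAACA was in 12.4% of promoters, and the paired site, AGAACA followed after 3 bases by TGTTCT, in 1 promoter. The other 3 starts listed for CCND3 and CDK6 held none of them either. These windows were rich in G and C, at 74.4% in CCND3, 80.0% in CDK6, 76.4% in CDKN1A and 64.4% in CDKN1B, against a median of 58.0% over all promoters. The peaks are on hg19 and the promoters on GRCh38.p14, so a peak was not laid on these letters. Whether the listed starts match the 5′ ends of the spans, from which distances were taken, was not examined.

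All 6 windows held top peaks of both antibodies, 429 in all, and they were densest at CDK6 and at the inhibitors. Over the whole length covered by the lists there were 6.46 top peaks per Mb. In the 6 windows there were 59.4 per Mb on average over the LEF1 libraries (range 48.1 to 65.1) and 41.7 over the TCF7L2 libraries (range 26.9 to 60.8). For LEF1 the density ran from 13.2 per Mb at CCND1 and 20.3 at CCND2 through 38.6 at CCND3 to 79.8 at CDK6, 87.4 at CDKN1A and 97.0 at CDKN1B. For TCF7L2 the order differed: 13.2 at CCND1, 16.3 at CCND2, 30.1 at CDKN1A, 31.5 at CCND3, 59.1 at CDK6 and 66.7 at CDKN1B. How the windows compare with those of other expressed genes was not examined.

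Merging overlapping top peaks of the 12 lists gave 84 sites, of which 41 lay at CDK6, 21 at CCND3, 9 at CDKN1B, 7 at CDKN1A and 3 each at CCND1 and CCND2. Of these, 55 overlapped a gene span, 13 lay upstream and 16 downstream of the gene, and 5 came within 1 kb of a 5′ end. A single library supplied 28 of the sites (33.3%), against 62.9% of all 94415 regions. Top peaks of all 12 libraries met at 3 sites (3.57%), against 0.713% of all regions. Among those with a top peak in 3 or more libraries the shares were 3 of 47 (6.38%) and 2.55%. These were 1 site upstream of CCND3 and 2 sites far inside CDK6. Merging the LEF1 lists alone gave 59 regions, and 23 of them (39.0%) held a top peak in all 6 libraries, against 20.5% of all LEF1 regions. The corresponding figure for TCF7L2 was 5 of 77 (6.49%), against 2.20%. In all 12 libraries the median width of top peaks was larger at the 6 genes than over the whole list. For LEF1 it was 1260 to 1934 bp against 1138 to 1409 bp, and for TCF7L2 438 to 732 bp against 405 to 595 bp. Wider peaks overlap more readily, and the part of width in these shares was not tested.

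**Figure D1:**
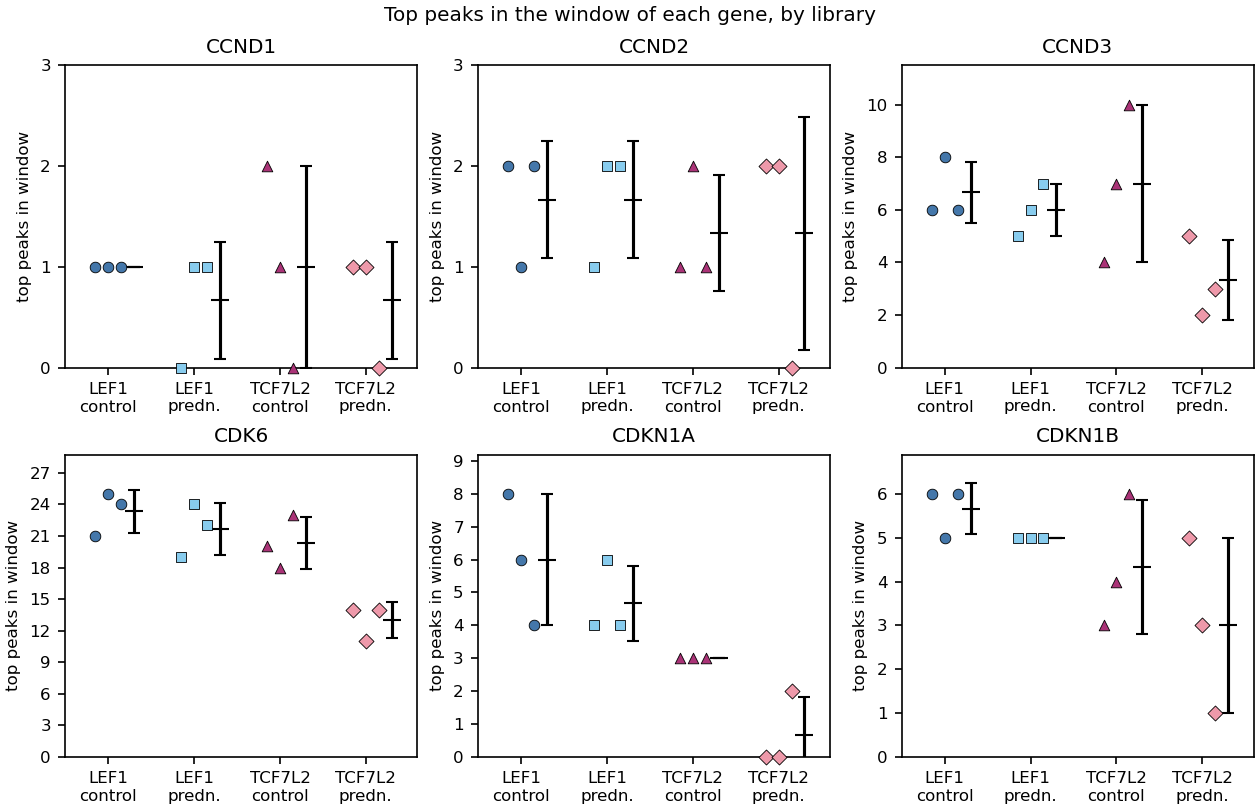
Number of top peaks in the window of each gene (vertical axis, starting at 0) for the 4 groups of 3 libraries; points are libraries in the order of their replicate number, horizontal bars are group means and whiskers 1 SD. At CDK6 the prednisolone TCF7L2 libraries lie at 11 to 14 and the control ones at 18 to 23, while at CDKN1A every TCF7L2 library lies below every LEF1 library.

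CCND2 held the best-ranked LEF1 peak of the 6 genes. Its span is on chromosome 12 from 4383000 to 4415000 on the plus strand, and the strongest LEF1 peak had its summit within -1.96 and -1.88 kb of the 5′ end in all 6 libraries. This peak belonged to a site of 4637 bp centred 3.6 kb upstream (chr12:4377107-4381743). Its LEF1 ranks were 414, 309 and 217 in the controls and 303, 210 and 796 after prednisolone, so both groups stood high in their lists and overlapped. The authors' fold ratio there was 14.1 ± 0.863 (SD, n = 3) in the controls and 15.0 ± 2.48 (n = 3) after prednisolone. TCF7L2 ranks at the site were 1632, 5080 and 2218 in the controls and 3828, 2436 and 76203 after prednisolone, with a fold ratio of 4.82 ± 0.953 (n = 3) in the controls and 3.33 ± 1.06 after prednisolone. For the strongest peak of the window every LEF1 rank was better than every TCF7L2 rank, by 3.54 log2 units (exact permutation within treatments, two-sided p = 0.005, the smallest possible). RefSeq places CCND2-AS1 and TIGAR beside CCND2, and whether a site lies in a neighbour was not examined for any of the genes.

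CCND1, by contrast, had few top peaks, and no site lay in the gene. Its span lies on chromosome 11 from 69456000 to 69469000, plus strand. The number of top peaks was 1, 1 and 1 in the LEF1 controls and 0, 1 and 1 after prednisolone, and 2, 1 and 0 against 1, 1 and 0 for TCF7L2. All 3 sites were outside the span, and the one with the most libraries was centred 21.3 kb from the 5′ end, beyond the 3′ end (chr11:69476541-69478090). Its LEF1 ranks were 2302, 3286 and 12899 in the controls and 22610, 14840 and 13592 after prednisolone. The groups did not overlap, at a fold ratio of 10.5 ± 3.24 (SD, n = 3) against 5.99 ± 0.575. This was also the strongest LEF1 peak of the window in each library, and its rank was 1.79 log2 units worse after prednisolone, with ranks beyond 20000 set just past that limit as in all such tests (exact p = 0.1, the smallest that 3 against 3 libraries allow). Within the sets of like shortest peaks the difference was 2.63 and 1.62. The strongest TCF7L2 peak lay at different places: it had its summit at -21.7, 34.0 and -11.0 kb in the 3 controls. These peaks were weak, at 3.39, 0.881 and 0.704 on the -log10 q scale. The last was no top peak: it was 1 of 11442 tied peaks, and its rank of 32833 came from their random order.

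CCND3 held the best single TCF7L2 rank of the 6 genes, 347 in control 1. The median rank of the strongest TCF7L2 peak was nevertheless better at CDK6 (495.5) than at CCND3 (602). All treated TCF7L2 libraries ranked better at CDK6. Its span on chromosome 6 runs from 41903000 to 42017000 on the minus strand. A site of 1770 bp centred 1.4 kb upstream (chr6:42017524-42019293) held a top peak in all 12 libraries, and RefSeq lists TAF8, which encodes a subunit of the general factor TFIID, as the neighbour on that side. TCF7L2 ranks there were 347, 531 and 462 in the controls and 673, 936 and 709 after prednisolone. These were the strongest TCF7L2 peaks of the window, and the groups did not overlap (0.80 log2 units worse after prednisolone, exact p = 0.1), while the fold ratio was 9.48 ± 1.16 (SD, n = 3) against 5.61 ± 1.43. LEF1 ranks at the site were 1316, 1830 and 1244 in the controls and 985, 831 and 1327 after prednisolone, at fold ratios of 8.50 ± 0.554 and 9.83 ± 0.691. At the site the antibodies stood -1.07 log2 units apart, TCF7L2 the better, and their treatment differences 1.29 apart. For the strongest peak of the window, which in LEF1 prednisolone 3 lay elsewhere, TCF7L2 ranks were better by -0.99 log2 units, with overlap (exact p = 0.01), and the treatment difference differed between the antibodies by 1.45 (exact p = 0.005). In the shortest-peak set of control 1 and prednisolone 2 and 3, the strongest peak differed by -0.57 (LEF1) and 1.23 (TCF7L2) between treatments. In the other set it differed by -0.62 (LEF1) and 0.44 (TCF7L2).

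Of the 20 other CCND3 sites, 10 had a top peak in more LEF1 than TCF7L2 libraries and 10 in more TCF7L2 than LEF1 libraries. The latter were held by few libraries, at most 4, as at 0.6 kb (4 TCF7L2 and no LEF1). At 3.8 kb inside the gene (chr6:42012197-42014188) LEF1 ranks were 14254, 6958 and 8152 in the controls and 1951, 4904 and 2266 after prednisolone. All treated ranks were better than all control ranks (by 1.74 log2 units), and the fold ratio was 4.89 ± 0.909 against 7.97 ± 2.54 (SD, n = 3 each). TCF7L2 had a top peak there in 2 of 3 controls and in none of the treated libraries, and the treatment difference was 3.06 log2 units further toward a worse rank for TCF7L2 than for LEF1. A site 74.5 kb into the gene (chr6:41941555-41943545) held a top peak in all 6 LEF1 libraries, at ranks from 946 to 4548, and in the 3 TCF7L2 controls but only 1 treated TCF7L2 library. At 26.7 kb (chr6:41988985-41991611) all 6 LEF1 libraries, with ranks from 3096 to 16098, and 2 TCF7L2 libraries had a top peak. Of the 21 sites, 10 rested on 1 library.

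**Figure D2:**
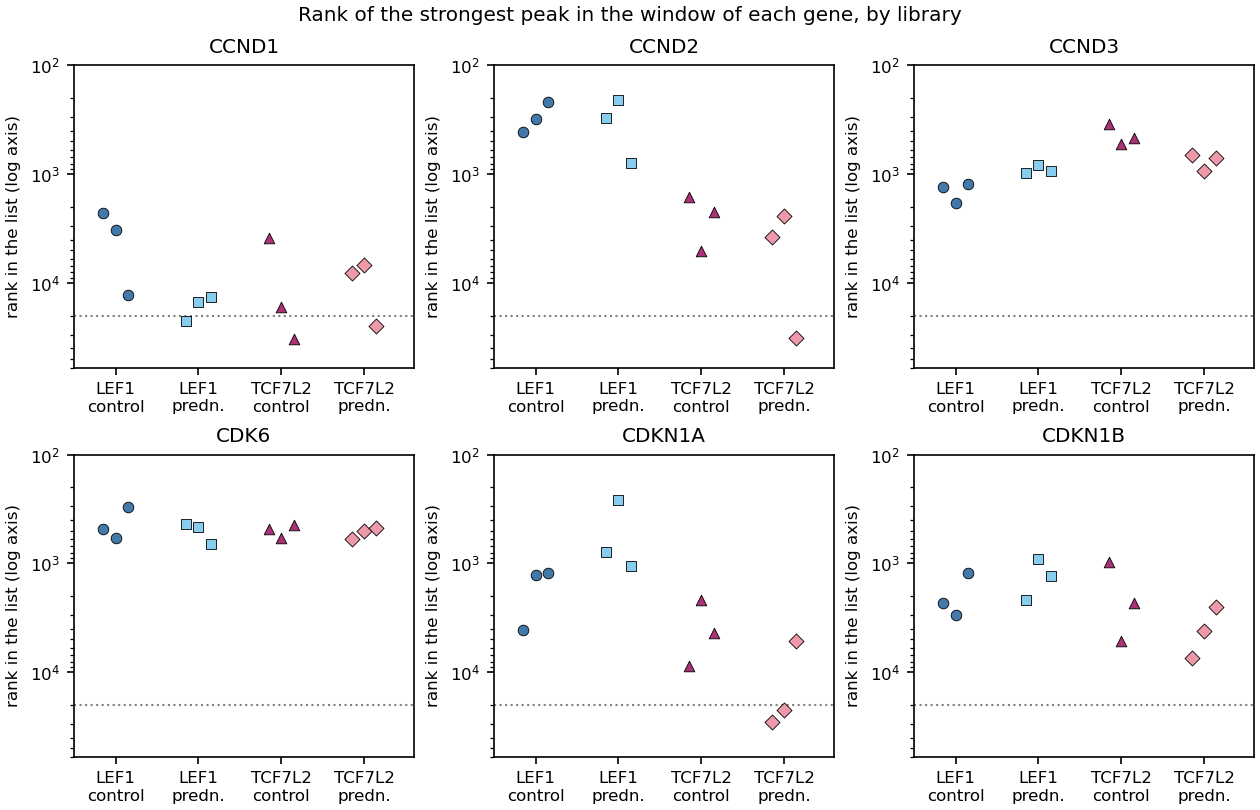
Rank of the strongest peak in the window of each gene (vertical log axis, strongest at the top) for the 4 groups; points are libraries in the order of their replicate number, and the dotted line marks rank 20000. CDK6 ranks lie between 303 and 663 in all 12 libraries, whereas at CCND2 every LEF1 point lies above every TCF7L2 point.

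The CDK6 window had more peaks than the other 5 windows together, and the antibodies peaked at different places in this window. The span covers 232 kb on chromosome 7 from 92234000 to 92466000 on the minus strand. Top peaks numbered 21, 25 and 24 in the LEF1 controls and 19, 24 and 22 after prednisolone, and the groups overlapped. For TCF7L2 there were 20, 18 and 23 in the controls and 14, 11 and 14 after prednisolone, with no overlap (-0.61 log2 units, exact p = 0.1). TCF7L2 libraries held fewer than LEF1 libraries, with overlap (-0.44 log2 units, exact p = 0.01). With 5000 top peaks per list neither difference remained, at 0.05 and -0.01 log2 units. The strongest peak of the window ranked 303 to 663 in the LEF1 lists and 449 to 596 in the TCF7L2 lists, and no comparison of these ranks separated any groups.

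The strongest LEF1 peak was the same one in every LEF1 library. Its site lies 23.0 kb into the gene (chr7:92441825-92444242), with LEF1 ranks of 480, 584 and 303 in the controls and 431, 463 and 663 after prednisolone. The fold ratio was 9.20 ± 0.512 and 9.84 ± 0.632 (SD, n = 3 each). TCF7L2 ranks there were 2356, 53049 and 2581 in the controls and 1694 and 8065 in prednisolone 1 and 3, with no peak in prednisolone 2. A second strong LEF1 site lay 144.1 kb into the gene (chr7:92319686-92324032), with LEF1 ranks of 510, 635 and 1986 in the controls and 812, 1171 and 3380 after prednisolone. TCF7L2 had a top peak there in 1 of 6 libraries. At both sites every LEF1 rank was better than every TCF7L2 rank, by 3.58 and 4.07 log2 units.

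TCF7L2 was strongest at the 5′ end of the gene and at a site outside it, beyond the 3′ end. The site that reached across the 5′ end, 5467 bp wide and centred 1.6 kb inside (chr7:92461663-92467129), had TCF7L2 ranks of 485, 599 and 1445 in the controls and 630, 671 and 742 after prednisolone. Its LEF1 ranks were 11153, 21876 and 8930 in the controls and 31246, 5807 and 11290 after prednisolone. A site 247.2 kb from the 5′ end (chr7:92217989-92219708), beyond the 3′ end on the side where RefSeq lists FAM133B, had TCF7L2 ranks of 658, 582 and 449 in the controls and 596, 506 and 477 after prednisolone. LEF1 ranks there lay between 19677 and 67365. At this site the fold ratio was 8.02 ± 1.90 and 6.94 ± 0.470 for TCF7L2, control and treated, against 2.70 ± 0.415 and 3.22 ± 0.452 for LEF1 (SD, n = 3 each). The TCF7L2 rank was better at both sites (-4.04 and -5.21 log2 units). Neither site separated treated from control libraries.

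**Figure D3:**
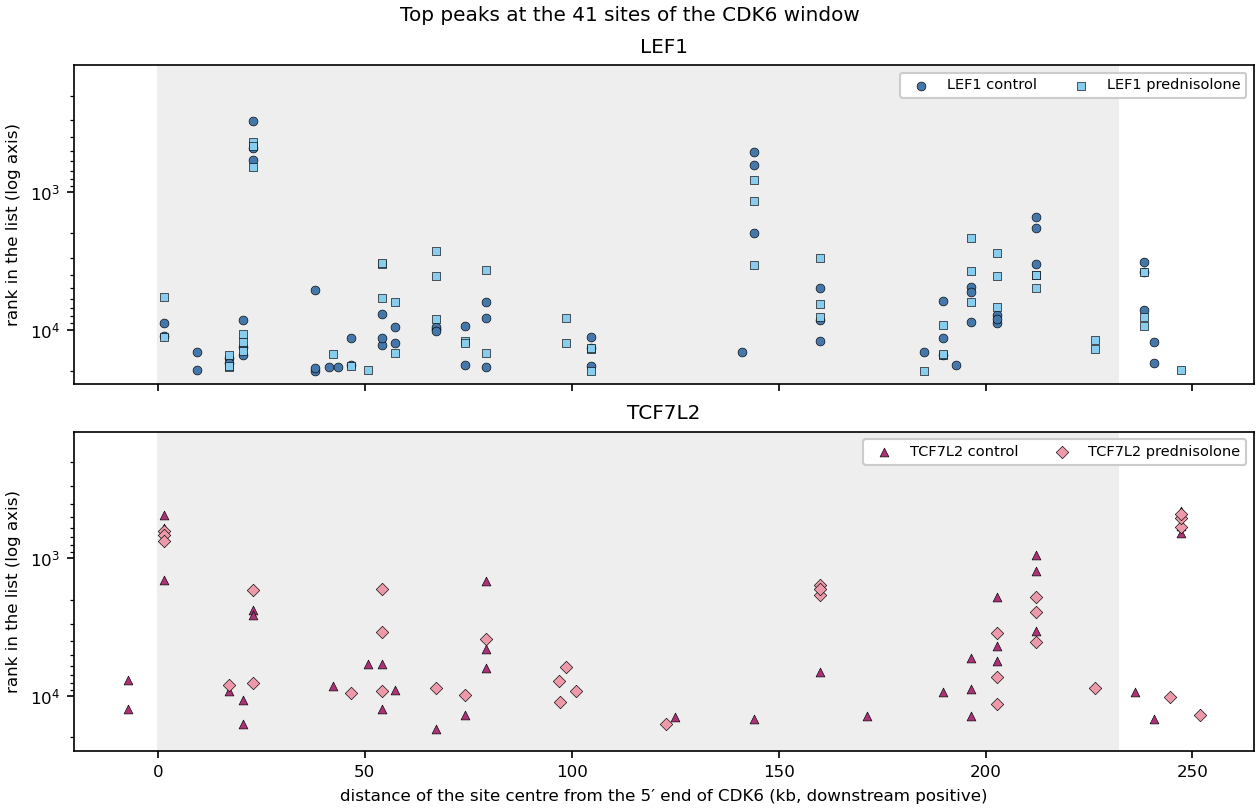
Top peaks at the 41 sites of the CDK6 window: distance of the site centre from the 5′ end in kb (horizontal axis; the grey band is the gene span) against rank in the list (vertical log axis, strongest at the top), LEF1 above and TCF7L2 below, with 1 point per library. The highest LEF1 points stand at 23.0 and 144.1 kb and the highest TCF7L2 points at 1.6 and 247.2 kb.

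Both CDK6 sites with a top peak in all 12 libraries lay in the far part of the gene, while sites at 54.2, 23.0 and 1.6 kb had one in 11, 10 and 10 libraries. At 212.2 kb (chr7:92249951-92257745), the widest site at 7795 bp, all 12 libraries had a top peak, with LEF1 ranks from 1525 to 4945 and TCF7L2 ranks from 948 to 4061. LEF1 ranks were 1833, 1525 and 3354 in the controls and 4945, 4000 and 3987 after prednisolone, without overlap (1.02 log2 units worse). At 202.7 kb (chr7:92260072-92266503), also in all 12, the LEF1 order was the opposite: 7847, 8955 and 8305 in the controls and 2795, 4085 and 6845 after prednisolone, again without overlap (-0.97 log2 units). Neighbouring sites thus stood in opposite orders in the LEF1 lists. The treatment differences of the antibodies lay 1.85 log2 units apart at 202.7 kb and 1.92 apart at 196.4 kb (chr7:92267053-92272117), TCF7L2 toward the worse rank. At the latter all 3 TCF7L2 controls had a top peak, at ranks 5312, 8822 and 13974, and none of the treated libraries had.

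A further CDK6 site, which was chosen through its high TCF7L2 ranks after prednisolone, went the other way for TCF7L2. It lay 160.1 kb into the gene (chr7:92302874-92308896), with TCF7L2 ranks of 6644, 151250 and 177196 in the controls and 1548, 1853 and 1664 after prednisolone. The groups did not overlap (-3.04 log2 units), and the fold ratio was 2.75 ± 0.846 against 4.94 ± 1.07 (SD, n = 3 each). LEF1 had a top peak there in all 6 libraries, at ranks from 3002 to 12112 that overlapped between treatments. Among the TCF7L2 regions at the 6 genes this was the one region, of 77, in which every treated rank was better than every control rank (1.3%), against 0.999% of all TCF7L2 regions. The reverse held for 3 of 77 (3.90%), against 2.24%.

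At the inhibitor CDKN1A, LEF1 had more top peaks than TCF7L2, upstream and inside the gene, although 1 upstream site was held by more TCF7L2 than LEF1 libraries. The span is on chromosome 6 from 36644000 to 36655000, plus strand, next to the non-coding genes PANDAR and DINOL in RefSeq, and no site came within 1 kb of the 5′ end. Top peaks numbered 8, 6 and 4 in the LEF1 controls and 4, 6 and 4 after prednisolone, against 3, 3 and 3 in the TCF7L2 controls and 0, 0 and 2 after prednisolone. All TCF7L2 libraries lay below all LEF1 libraries (-1.36 log2 units, exact p = 0.005), and all treated TCF7L2 libraries below their controls (-1.47, exact p = 0.1). The strongest LEF1 peak had its summit between -25.2 and -25.0 kb in all 6 libraries, at ranks of 4077, 1276 and 1219 in the controls and 793, 262 and 1051 after prednisolone. Every treated rank was better (-1.62 log2 units, exact p = 0.1). The fold ratio at this site (chr6:36615736-36620745), which reached beyond the edge of the window, was 7.0 ± 2.0 in the controls and 10.2 ± 3.05 after prednisolone (SD, n = 3 each). All its LEF1 summits lay just outside the window, which begins 25 kb upstream, so the peak was counted through its overlap alone.

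The strongest TCF7L2 peak of the CDKN1A window ranked 8714, 2190 and 4363 in the controls and 28821, 22442 and 5225 after prednisolone, and the groups overlapped (1.55 log2 units, exact p = 0.2). Its summit lay at -25.0, -25.2 and -8.8 kb in the controls and at 18.8, 6.5 and -7.6 kb after prednisolone. These ranks therefore do not follow a single site, unlike those of LEF1. For the strongest peak the treatment difference differed between the antibodies by 3.17 log2 units (exact p = 0.03). Leaving out TCF7L2 control 2 or 3 or prednisolone 1 or 2 took this p above 0.05, to between 0.06 and 0.07, with the smallest difference among these at 2.67. In the shortest-peak set of control 1 and prednisolone 2 and 3, the treatment difference was -2.96 log2 units for LEF1 and 0.23 for TCF7L2. In the other set it was -0.65 for LEF1 and 2.69 for TCF7L2. Inside the gene, at 5.8 kb (chr6:36648229-36651274), LEF1 had a top peak in all 6 libraries, at ranks from 3873 to 9849, and TCF7L2 in none. Such a pattern, LEF1 in all 6 and TCF7L2 in none, held at 3 of the 84 sites (3.57%), against 1.57% of all regions; the other 2 were at CDK6, 104.6 and 238.3 kb from the 5′ end.

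Both antibodies also had top peaks at 2 upstream CDKN1A sites, those of TCF7L2 being weak on the -log10 q scale. At 8.5 kb upstream (chr6:36633897-36637017) TCF7L2 had a top peak in 4 libraries, at ranks 10276, 14532 and 4363 in the controls and 5225 in prednisolone 3, with ranks of 307555 and 272934 in prednisolone 1 and 2. These TCF7L2 top peaks stood at 1.53, 1.13 and 4.14 in the controls and at 1.14 in prednisolone 3 on that scale. LEF1 had a top peak in 3 libraries there, with all ranks between 9824 and 25235. At 17.7 kb upstream (chr6:36624614-36627907) all 6 LEF1 libraries had a top peak, at ranks from 1623 to 17914. There 3 TCF7L2 libraries had one, at ranks 20000, 18894 and 8404. These stood at only 0.996, 1.07 and 1.03 on the -log10 q scale. The first of them was a top peak only through the random order among ties. Control and treated ranks overlapped at both sites for either antibody.

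CDKN1B, the shortest of the 6 genes at 5 kb, was flanked by sites on both sides. Its span lies on chromosome 12 from 12870000 to 12875000, plus strand, between GPR19 and APOLD1 in RefSeq. Top peaks numbered 6, 5 and 6 in the LEF1 controls and 5, 5 and 5 after prednisolone, and 3, 4 and 6 against 5, 3 and 1 for TCF7L2, with overlap in both cases. The site 13.2 kb upstream (chr12:12855580-12857954) had LEF1 ranks of 2299, 6263 and 1216 in the controls and 2194, 911 and 1793 after prednisolone, at fold ratios of 11.4 ± 3.23 and 14.3 ± 3.43 (SD, n = 3 each). TCF7L2 had a top peak there in 2 of 6 libraries, and every LEF1 rank was better, by 3.11 log2 units. The site across the 5′ end, centred 1.4 kb upstream (chr12:12866661-12870524), had a top peak in all 6 LEF1 libraries, at ranks from 3168 to 15004, and in 4 of 6 TCF7L2 libraries. Further upstream, at 19.9 kb (chr12:12849233-12851064), TCF7L2 had a top peak in 5 of 6 libraries and LEF1 in 3 of 6. TCF7L2 ranks there were 3940, 7028 and 19402 in the controls and 42305, 4206 and 2500 after prednisolone, and LEF1 ranks lay between 11852 and 44438. Beyond the 3′ end, at 8.5 kb (chr12:12877047-12880039), LEF1 had a top peak in 5 libraries, at ranks from 6065 to 16534, and TCF7L2 in 3.

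The site about 20 kb from the 5′ end of CDKN1B, downstream of the gene (chr12:12889057-12890966), had TCF7L2 top peaks in the control libraries alone. TCF7L2 ranks were 4372, 5214 and 2301 in the controls, while after prednisolone library 1 had a peak at rank 107788 and libraries 2 and 3 had none. LEF1 ranks were 3270, 3016 and 1287 in the controls and 3703, 1584 and 1313 after prednisolone, at a fold ratio of 6.18 ± 1.87 against 6.04 ± 0.883 (SD, n = 3 each). The TCF7L2 groups therefore did not overlap and the LEF1 groups did. The treatment differences of the antibodies lay 2.66 log2 units apart.

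**Figure D4:**
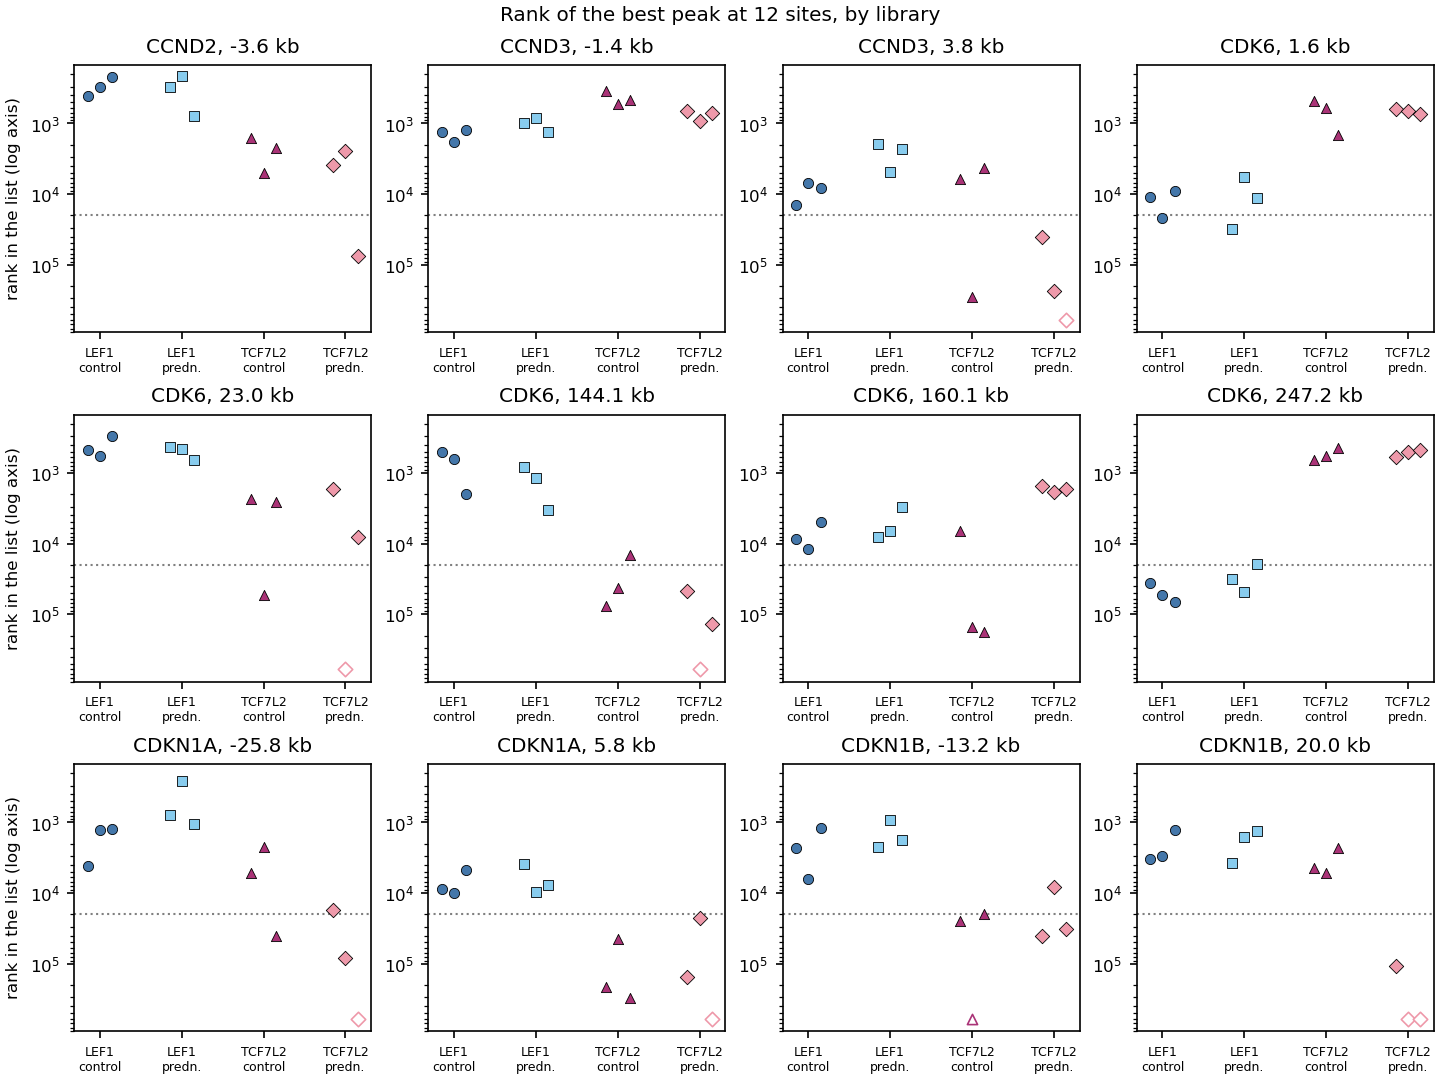
Rank of the best peak at 12 of the sites named in the text, in each library (vertical log axis, strongest at the top; open symbols at the bottom mark libraries with no peak at the site; the dotted line marks rank 20000); panel titles give the gene and the distance of the site centre from its 5′ end. The TCF7L2 points stand above the LEF1 points at CDK6 1.6 and 247.2 kb and below them at CDK6 23.0 and 144.1 kb.

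Counted over the 6 genes, LEF1 differed little between treatments and TCF7L2 was lower after prednisolone. Top peaks numbered 44, 46 and 43 in the LEF1 controls and 34, 44 and 41 after prednisolone, or 44.3 ± 1.53 against 39.7 ± 5.13 (SD, n = 3 each). The groups overlapped, and the difference was -0.16 on the log2(number + 1) scale. For TCF7L2 there were 33, 35 and 43 in the controls and 27, 19 and 20 after prednisolone, or 37.0 ± 5.29 against 22.0 ± 4.36, a difference of -0.73 with no overlap. With 5000 top peaks per list the groups overlapped, at 14, 8 and 13 against 9, 10 and 6, and the difference was -0.43. In the shortest-peak set of control 1 and prednisolone 2 and 3, the difference was -0.73 for TCF7L2 and -0.05 for LEF1. In the other set it was -0.51 for TCF7L2 and -0.38 for LEF1. The corresponding full lists held 196, 186 and 194 TCF7L2 peaks in the controls and 163, 130 and 105 after prednisolone. Only 11, 5 and 8 of the control TCF7L2 peaks and 6, 3 and 3 of the treated ones reached a -log10 q-value of 5, against 43 to 55 in the LEF1 libraries. The total for TCF7L2 was below that for LEF1 on the same scale (-0.55), with overlap. These totals are given without a p-value because the 6 genes were chosen together with earlier results known. Over the whole genome, regions with a top peak in all 3 TCF7L2 libraries numbered 5085 in the controls and 2789 after prednisolone. At the 6 genes they numbered 12 and 7, so no fall particular to these genes is shown.

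Few regions were gained or lost outright, where gained means a top peak in all 3 treated and no control library. For LEF1 none of 59 regions was gained, against 2.82% of all LEF1 regions, and 2 (3.39%) were lost, against 1.92%. The lost ones lay 7.8 kb into CCND3 (chr6:42008559-42009933) and 38.0 kb into CDK6 (chr7:92427173-92428775). At both, treated LEF1 libraries still held weaker peaks, with ranks of 23022, 96547 and 23123 at CCND3 and 22588, 27706 and 31017 at CDK6. For TCF7L2 none of 77 regions was gained, against 0.363% of all TCF7L2 regions, and 2 (2.60%) were lost, against 1.24%. These were the CDKN1B region about 20 kb from the 5′ end and a CDK6 region at 196.8 kb (chr7:92268400-92270043). The counts are too small to set these shares apart from those of all regions, and a single region with this pattern has an exact p of 0.1. Every treated LEF1 rank was better than every control rank in 5 of 59 regions (8.47%), against 7.79%, and worse in 4 (6.78%), against 7.68%.

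Differences between the antibodies at single sites were, among sites held by 3 or more libraries, about as frequent as across the genome. LEF1 had the better rank at 14 of the 84 sites at an exact p of at most 0.05 (16.7%), against 8.65% of all regions. Among the sites and regions with a top peak in 3 or more libraries the shares were 29.8% (14 of 47) and 31.0%. TCF7L2 had the better rank at 3 sites (3.57%, or 6.38% of the 47), against 2.68% and 9.6%, namely CCND3 at 1.4 kb upstream and CDK6 at 1.6 and 247.2 kb. The treatment difference was toward a worse rank for TCF7L2 than for LEF1 at 6 of 84 sites (7.14%), against 0.892% of all regions. Among those with 3 or more libraries it was so at 6 of 47 (12.8%), against 3.19%. Whether these shares differ was not tested, and the opposite direction was not counted over all regions. The 6 sites cannot be taken as independent, since 2 are neighbours in CDK6 and 2 lie close together at CCND3. After Benjamini-Hochberg adjustment over all 94415 regions no site passed 0.05. The smallest adjusted p was 0.0987 for the antibodies and 1 for the other comparisons. For single genes 48 tests of number and best rank were made, and their p-values are unadjusted.

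Regions held by all 3 libraries of a group made up a smaller number for TCF7L2 than for LEF1, and most of the TCF7L2 ones overlapped a LEF1 region. In the controls 9 of 28 LEF1 regions overlapped a TCF7L2 region (32.1%, exact 95% Clopper-Pearson interval 15.9 to 52.4%), against 20.8% of all LEF1 regions. After prednisolone the figure was 5 of 26 (19.2%, interval 6.55 to 39.4%), against 10.6%. Seen from TCF7L2, 9 of 12 regions were shared in the controls (75.0%) and 5 of 7 after prednisolone (71.4%), against 47.3% and 44.9% of all TCF7L2 regions. All of these shares stood above those of all regions, a difference that was not tested. Top peaks at these genes were also wider than those of the whole lists, and the part of width in the shares was not tested. The intervals cover counting error only. The 9 shared control regions were 5 at CDK6, 2 at CCND3 and 1 each at CCND2 and CDKN1B, and none lay at CDKN1A or CCND1.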

How the data were processed

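CUT&RUN libraries of Nalm6 cells were analysed from 12 peak lists, 1 per library and none pooled. Peaks were called with MACS2 on hg19, per the submitters' processing notes; the version, aligner, control library and filters are not given in the sources used here. For each peak the authors deposited a score, a fold ratio over the modelled background, a -log10 p-value, a -log10 q-value and a summit offset. Read totals were not used here, so depth is known only through the lists and the 3 replicates per group set the precision.

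Peaks of each list were ranked by -log10 p-value and then fold ratio, with a seeded random order among ties. Ties filled 1659, 2231 and 7599 of the 20000 top places in TCF7L2 control 2, prednisolone 1 and prednisolone 3. Windows were gene spans, given to the nearest kb, plus 25 kb, and an overlap of 1 bp counted. Numbers were compared as log2(number + 1) and ranks as log2(rank), with 20001 where a library had no top peak; a positive rank difference is a worse rank. Tests were exact permutations, two-sided: 20 relabellings for treatment, 400 for antibody within treatment. The treatment differences of the antibodies were compared by exchanging treatment labels within each antibody. That test assumes no treatment difference in either antibody, so a small p does not by itself show that the antibodies differ. Site tests ran over all 94415 merged regions with Benjamini-Hochberg adjustment, and the scripts were tested on simulated data. At most 0.0737% of intervals were identical between 2 lists.

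Replicate numbers were not treated as pairs in the main tests. Correlations of deviations ran from -0.0553 to 0.0197 for same-numbered libraries and from -0.0171 to 0.0322 for others. The sets by shortest peak did follow the same numbers in both antibodies, so a shared origin of equal numbers remains possible. The sites named were, for each gene, up to 5 with a top peak in a whole group, by the best worst rank, every gained or lost region, and the strongest peak of each list; CDK6 sites at 54.2, 104.6, 196.4, 202.7, 212.2 and 238.3 kb and CCND3 at 0.6 kb were described after their values were seen. The genes, windows and tests were chosen with earlier results of these data known. Other pathway genes and genes with like patterns were not analysed here. Analyses used Python 3.11.15, numpy 2.4.6, pandas 2.3.3, scipy 1.17.1 and matplotlib 3.10.9.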

Additional observations from a re-analysis of the deposited data

Results flagged for a closer look

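In each of the following results the treatment difference of TCF7L2 lay toward a worse rank than that of LEF1, at an unadjusted exact p below 0.05. The permutation test exchanged treatment labels within each antibody. It therefore tests for no treatment difference in either antibody and not for an equal one. For the strongest peak of the window the difference between the antibodies was 1.45 log2 units at CCND3 (exact p = 0.005). It was 3.17 at CDKN1A (exact p = 0.03), where the strongest TCF7L2 peak lay at different places in different libraries. The same difference at single sites was 3.26 at CDKN1A 25.8 kb upstream, 3.06 at CCND3 3.8 kb inside the gene, 1.29 at CCND3 1.4 kb upstream, and 1.85 and 1.92 at CDK6 202.7 and 196.4 kb from the 5′ end. Unadjusted exact p-values of these sites lay between 0.015 and 0.04 in the test over all regions, but the sites were described because of their ranks, so these values give no independent support. No region passed 0.05 after adjustment over all 94415 regions, where the smallest adjusted p for this comparison was 1. TCF7L2 prednisolone lists had fewer peaks reaching 5 on the -log10 q scale (1271 to 2249) than the controls (2401 to 3524), and the part of this in these results was not tested.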

How the results depend on the processing

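The total over the 6 genes kept its direction for TCF7L2 (prednisolone against control) and for TCF7L2 against LEF1 in all settings run. The LEF1 treatment difference turned to 0.22 log2 units with 5000 top peaks and kept its sign in the other settings. Leaving out 1 library gave -0.24 to -0.06 for LEF1, -0.88 to -0.62 for TCF7L2 and -0.62 to -0.50 between the antibodies. With peaks reaching 5 on the -log10 q scale in place of top peaks the antibody difference was -2.98. The replicate block, in which signs were exchanged within equal-numbered pairs, changes the test and not the value. These differences therefore stayed at -0.16, -0.73 and -0.55. With 3 pairs it allows no p below 0.25 for a treatment, and whether equal numbers are true pairs is not known.

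With 5000 top peaks, 1 region was gained and 0 were lost for either antibody. With full lists LEF1 gained 1 and lost 6 regions, and TCF7L2 lost 5. TCF7L2 lost 1 region in the gene spans alone and 4 when an overlap of 50% of the shorter interval was asked for. Leaving out 1 library gave 0 to 3 gained and 2 to 4 lost LEF1 regions, and 0 to 1 gained and 2 to 5 lost TCF7L2 regions. The shared shares of LEF1 regions stayed within their intervals, which are so wide that this says little about stability. Leaving out 1 library gave 26.5 to 42.9% in the controls and 17.1 to 26.9% after prednisolone.

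For single genes, signs turned as follows, and the cause was not tested. With 5000 top peaks the LEF1 treatment difference in number was 0.38 at CCND3, 0.24 at CDK6 and 0.33 at CDKN1B, that of TCF7L2 0.051 at CDK6, and the TCF7L2 rank difference at CCND1 0.12. With full lists TCF7L2 exceeded LEF1 in number by 1.00 at CCND1 (exact p = 0.01) and by 0.10 at CCND2. Leaving out 1 library gave, at CCND1, -0.25 to 0.15 for number between antibodies, -0.63 to 0.17 for TCF7L2 number and -0.81 to 0.37 for TCF7L2 rank between treatments. At CCND2 it gave -0.40 to 0.39 for TCF7L2 number and -0.26 to 0.70 for LEF1 rank. At CDK6 ranks ranged from -0.055 to 0.42 for LEF1, from -0.032 to 0.17 for TCF7L2 and from -0.018 to 0.22 between antibodies. The second random order of ties and the leave-one-out of the CCND3 and CDKN1A rank differences between antibodies were chosen after seeing the data. Depth could not be set against these values, since read totals were not used here.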
